A study of Mus musculus with 8 samples.

Results

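Muscle relaxes when calcium is pumped out of the cytosol into the sarcoplasmic reticulum, and 10 genes of that machinery were followed in infarcted mouse hearts. They encode the calcium pumps (Atp2a2, Atp2a1), the small membrane peptides that inhibit them (Sln for sarcolipin, Pln for phospholamban), the proteins that hold calcium inside the reticulum (Casq2, Casq1, Hrc), and the proteins through which calcium enters the cytosol again (Ryr2, Trdn, Cacna1c). The genes were picked by symbol, with the difference between the groups already known, from a table of 22173 genes, and each of the 10 had a row. What follows on these 10 genes is therefore a description, without a test of the treatment.

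The 8 libraries came from hearts of C57BL/6J mice whose left anterior descending coronary artery had been tied off, a surgical model of myocardial infarction. In 4 libraries, called DAPA, the mice received dapagliflozin, an inhibitor of the renal glucose transporter SGLT2, at 1 mg/kg per day over 4 weeks after surgery. In the other 4 libraries the mice received vehicle. All 8 libraries came from ligated hearts, and unoperated hearts were not analysed here. The labels say heart and name neither a chamber, a border of the infarct nor an age, and they do not say whether a library is 1 animal or a pool, so the spread between libraries may be partly technical. Levels are given in FPKM, a measure of fragments that corrects for gene length and for the size of the library. The length used is that of the gene model, so the levels of different genes can be set side by side only roughly. Totals of 24990393 to 26823456 reads or read pairs stood behind each library, and whole reads could be recovered from the FPKM steps. Markers of heart muscle of either chamber were abundant throughout, with a summed level of 21058 to 22338 FPKM in DAPA libraries and 23101 to 23194 FPKM in vehicle libraries.

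The pump encoded by Atp2a2, known as SERCA2, moves calcium from the cytosol into the reticulum at the end of each beat, and the speed of that step sets how fast the heart relaxes and how much calcium is ready for the next beat. Phospholamban slows the pump until it is phosphorylated under adrenergic drive, and sarcolipin binds the same pump and lowers the calcium moved per ATP. In the adult mouse heart phospholamban is known as the main pump inhibitor of the ventricles, while sarcolipin is known from the atria. Inside the reticulum calsequestrin (Casq2 in heart, Casq1 mainly in skeletal muscle) buffers calcium, triadin (Trdn) anchors it to the release channel Ryr2, and the L-type channel Cacna1c supplies the calcium that opens Ryr2. In the annotation columns of the authors' deposited table, a term naming the sarcoplasmic reticulum was listed for 9 of the 10 genes, all but Cacna1c, and for 84 of all 22173 genes.

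Promoter sequences in RefSeq (mouse assembly GRCm38.p6, 250 bases before to 50 bases after the annotated start) were present for 7 of the 10 genes, and not for Sln, Atp2a2 and Trdn. The 4 printed here are that of Pln, which had the highest level of the set, those of the calsequestrin pair Casq2 and Casq1, related genes at very different levels, and that of Atp2a1, the gene with an entry whose groups did not overlap. Each reads 5′ to 3′ on the strand of its gene. Capitals mark matches to 6 motifs known from muscle promoters, searched on both strands: the MEF2 motif, the CArG box, the M-CAT element (spelled CATTCC), the GATA element (spelled AGATAA or TGATAA), the TATA box (spelled TATAAA) and a muscle E-box (spelled CAGCTG).
Pln, chr10:53337436-53337735, plus strand: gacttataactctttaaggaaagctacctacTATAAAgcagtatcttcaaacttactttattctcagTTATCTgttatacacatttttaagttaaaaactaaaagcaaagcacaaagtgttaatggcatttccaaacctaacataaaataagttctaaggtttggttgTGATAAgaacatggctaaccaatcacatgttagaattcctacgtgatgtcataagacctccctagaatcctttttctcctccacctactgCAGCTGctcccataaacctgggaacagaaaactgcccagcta
Casq2, chr3:102086165-102086464, plus strand: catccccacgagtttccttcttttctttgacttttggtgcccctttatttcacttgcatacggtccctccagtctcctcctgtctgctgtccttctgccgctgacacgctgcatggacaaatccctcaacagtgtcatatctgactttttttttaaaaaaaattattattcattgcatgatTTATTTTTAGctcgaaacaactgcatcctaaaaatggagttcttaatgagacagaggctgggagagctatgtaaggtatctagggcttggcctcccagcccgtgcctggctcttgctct
Casq1, chr1:172219846-172220145, minus strand: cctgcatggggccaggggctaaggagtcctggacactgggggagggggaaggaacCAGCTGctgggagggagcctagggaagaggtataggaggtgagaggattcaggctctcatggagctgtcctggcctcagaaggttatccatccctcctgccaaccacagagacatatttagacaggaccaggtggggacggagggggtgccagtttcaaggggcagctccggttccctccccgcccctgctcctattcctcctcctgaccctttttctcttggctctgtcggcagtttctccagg
Atp2a1, chr7:126463024-126463323, minus strand: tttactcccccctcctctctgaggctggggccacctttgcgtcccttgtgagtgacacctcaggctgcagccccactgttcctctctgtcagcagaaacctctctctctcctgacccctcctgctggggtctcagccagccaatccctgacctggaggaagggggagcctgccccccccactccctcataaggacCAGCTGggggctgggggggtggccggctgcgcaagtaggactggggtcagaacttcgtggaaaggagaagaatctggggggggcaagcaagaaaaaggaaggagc

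The Pln promoter held 4 matches, none overlapping another: TATAAA at position -219 from the annotated start, TTATCT, read on the other strand as a GATA motif, at -183, TGATAA at -82 and CAGCTG at 9. The Casq2 window held a MEF2 match, TTATTTTTAG, at position -69. CAGCTG stood at -195 in Casq1 and at -55 in Atp2a1. Among all 32851 promoters of the same length, 3.19% held the MEF2 motif, 1.63% the CArG box, 14.7% M-CAT, 18.6% a GATA motif, 13.6% TATAAA and 16.3% CAGCTG. The windows also differed in base composition, with a GC content of 36% in Pln, 44.7% in Casq2, 60.3% in Casq1 and 62.3% in Atp2a1. A match describes the letters and does not show that a factor binds there.

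Sarcolipin was the gene that set the groups apart. Sln (NCBI Gene 66402) had 325, 284, 323 and 317 FPKM in DAPA libraries 1 to 4, against 0.886, 0.0717, 0.154 and 0 FPKM in vehicle libraries 1 to 4. Every DAPA library was high and every vehicle library was below 1 FPKM, with vehicle library 1 the highest of the vehicle group. The means were 312 ± 19.1 FPKM in DAPA hearts and 0.278 ± 0.41 FPKM in vehicle hearts (SD, n = 4 each). In reads, 4389, 3961, 4265 and 4298 lay behind the DAPA values, and 12, 1, 2 and 0 behind the vehicle values. The 0 in vehicle library 4 allows a level of up to 0.219 FPKM (3 reads). Per read sequenced, Sln was 1128-fold higher in DAPA libraries (exact binomial 95% interval 684 to 2015, counting error only). Of the 15 vehicle reads, 12 came from library 1, and without that library the ratio was 4230 (interval 1447 to 20513), so the size of the ratio rests on a handful of reads while its direction does not. Among all genes in the table, Sln ranked 261st by mean FPKM in DAPA hearts and 12924th in vehicle hearts.

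Markers of atrial muscle were higher in the same libraries as sarcolipin. Of 18 atrial marker genes, a list that holds none of the 10 genes, 15 were higher and 1 (Kcna5) was lower with DAPA at a Benjamini-Hochberg adjusted p below 0.05 in limma, where 9.62% of all genes tested were higher and 8.75% lower. Their median log2 change was 1.07, against 0.01 over all genes tested. Summed over the list, the level was 15233 to 15946 FPKM in DAPA libraries and 10715 to 11528 FPKM in vehicle libraries. That sum was carried by Nppa (12070 ± 305 FPKM in DAPA hearts and 8481 ± 447 FPKM in vehicle hearts, SD, n = 4 each) and Myh6 (2361 ± 73.7 FPKM in DAPA hearts and 2396 ± 153 FPKM in vehicle hearts). Without these, the other 16 markers summed to 1116 to 1205 FPKM in DAPA libraries and 255 to 258 FPKM in vehicle libraries, and none of the 18 was at 0 throughout a group. Of 15 ventricular markers, 4 were higher (Irx4, Myom2, Gja1 and Kcnj2) and 4 lower (Myl2, Kcnip2, Fhl2 and Tcap). Their sums were 29320 to 31206 FPKM in DAPA libraries and 31273 to 31629 FPKM in vehicle libraries, so every DAPA sum lay below every vehicle sum. The largest downward differences of means were those of Tcap (-822 FPKM), Myl2 (-312 FPKM) and Fhl2 (-165 FPKM), all called lower. The largest upward difference was that of Mb (209 FPKM). Most of the level of the ventricular sum, though not its difference, came from Mb (means of 16873 FPKM in DAPA hearts and 16663 FPKM in vehicle hearts) and Myl3 (7217 and 7371 FPKM). Neither of these was called. The part of these markers in the Sln difference was not tested. In bulk hearts, a different number of cells of a type and a different amount of RNA per cell cannot be told apart.

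The genes whose pattern over the 8 libraries lay closest to that of Sln, by Euclidean distance in log2(FPKM + 1) centred on each gene's mean, were Myl7 (distance 0.59), Mybphl (3.24), Myl4 (4.26), Bmp10 (5.91), Hamp (6.54), Tmem163 (7.09), Mlana (7.36) and Sbk3 (7.64). Myl7, a myosin light chain, had 627, 578, 580 and 627 FPKM in DAPA libraries 1 to 4, against 2.93, 0.379, 1.09 and 0.964 FPKM in vehicle libraries 1 to 4. Its vehicle reads numbered 45, 6, 16 and 15, so vehicle library 1 was the highest vehicle library for Myl7 as it was for Sln. The lowest was library 2 for Myl7 and library 4, with 0 reads, for Sln. Among the other genes, Myl4, Sbk3 and Bmp10 were also highest in vehicle library 1. Mybphl and Mlana were highest in vehicle library 2, and Hamp and Tmem163 in vehicle library 4. Bmp10, a secreted growth factor of the heart, had 481, 396, 471 and 504 reads in DAPA libraries, against 1, 0, 0 and 0 reads in vehicle libraries. 5 of these 8 genes (Myl7, Mybphl, Myl4, Bmp10 and Hamp) are also in the atrial marker list, and all 8 were ranked by the same values that set Sln apart, so their own differences are given as descriptions. Of the 13 atrial markers that are not among these 8 genes, 10 were higher and 1 lower with DAPA at an adjusted p below 0.05 in limma.

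The phospholamban transcript differed by about 1% between the groups. Pln (NCBI Gene 18821) had 1673, 1741, 1694 and 1713 FPKM in DAPA libraries, against 1680, 1691, 1669 and 1702 FPKM in vehicle libraries. The groups overlapped, with means of 1705 ± 28.9 FPKM in DAPA hearts and 1686 ± 14.1 FPKM in vehicle hearts (SD, n = 4 each), 1.16% higher with DAPA. Pln was the most abundant of the 10 genes in each of the 8 libraries and ranked 29th of all genes in DAPA hearts and 30th in vehicle hearts.

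The cardiac pump transcript differed by about 2%, in the other direction. Atp2a2 (NCBI Gene 11938) had 1080, 1086, 1092 and 1100 FPKM in DAPA libraries, against 1129, 1080, 1115 and 1114 FPKM in vehicle libraries. The vehicle libraries 1, 3 and 4 lay above every DAPA library and vehicle library 2 lay among them, so the groups overlapped. The means were 1089 ± 8.36 FPKM in DAPA hearts and 1110 ± 20.7 FPKM in vehicle hearts (SD, n = 4 each), which is 1.84% lower with DAPA. On the log2(FPKM + 1) scale the difference was -0.03 with a standard error of 0.024, and it was 0.03 after quantile normalization, so its sign depended on the scaling.

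**Figure D1:**
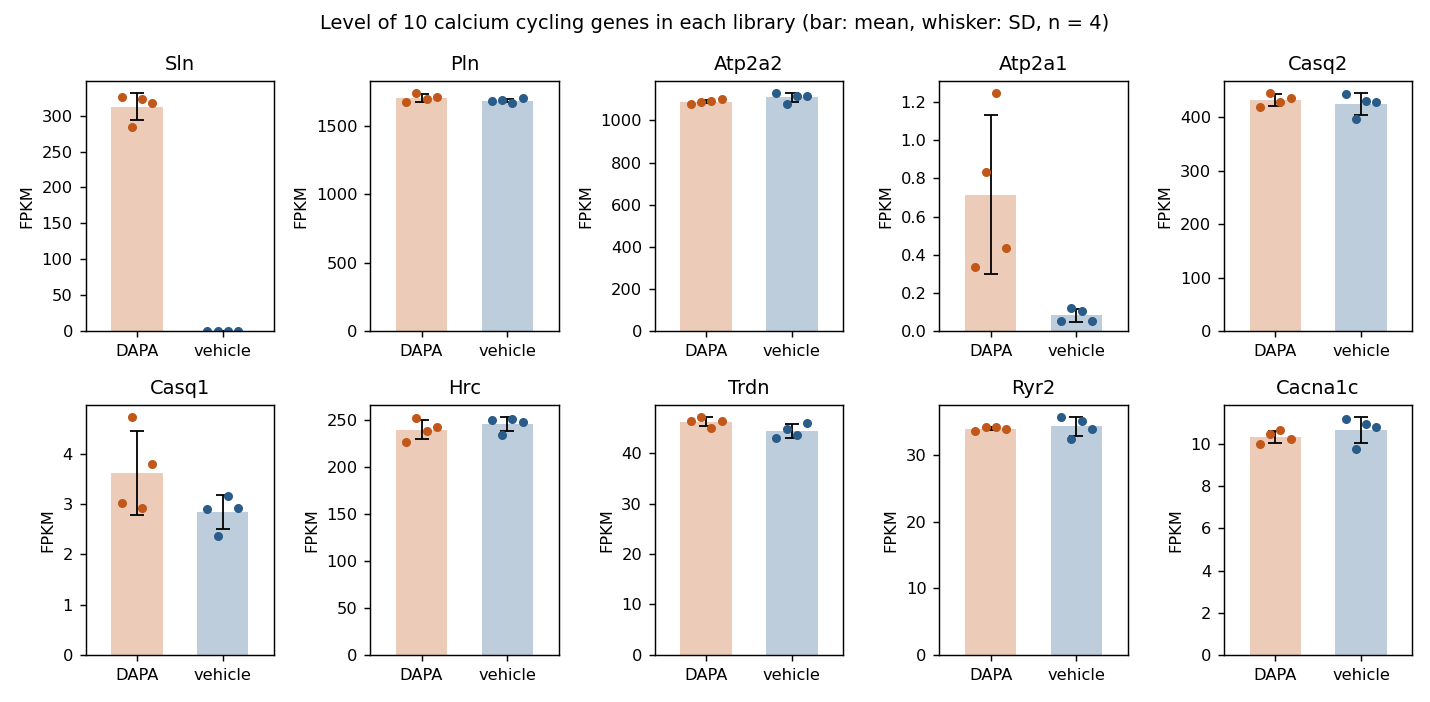
FPKM of the 10 genes in each library (points), with the group mean (bar) and SD (whisker, n = 4), DAPA at the left and vehicle at the right of each panel, each panel with its own axis from 0. Sln stands at 284 to 325 FPKM in the DAPA libraries and below 1 FPKM in the vehicle libraries, Atp2a1 is higher in every DAPA library at a low level, and the points of the other 8 genes overlap.

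FPKM corrects for gene model length, so the inhibitors can be read roughly against the pump within a library. The model lengths were 520 bases for Sln, 2480 for Pln and 5294 for Atp2a2, and a ratio of FPKM is not a count of molecules. The ratio of Sln to Pln was 0.194, 0.163, 0.19 and 0.185 in DAPA libraries, against 5.27e-04, 4.24e-05, 9.22e-05 and 0 in vehicle libraries. Sln thus stood at 0.183 ± 0.0139 of the phospholamban level in DAPA hearts, and at 0.287 ± 0.0174 of the Atp2a2 level (SD, n = 4). The ratio of Pln to Atp2a2 was 1.55, 1.6, 1.55 and 1.56 in DAPA libraries, against 1.49, 1.57, 1.5 and 1.53 in vehicle libraries. These groups overlapped, with means of 1.57 ± 0.0258 in DAPA hearts and 1.52 ± 0.035 in vehicle hearts (SD, n = 4 each). Adding Sln to Pln gave ratios to Atp2a2 of 1.85, 1.87, 1.85 and 1.85 in DAPA libraries, against 1.49, 1.57, 1.5 and 1.53 in vehicle libraries. The sum did not overlap between groups, at 1.85 ± 0.00893 in DAPA hearts and 1.52 ± 0.0347 in vehicle hearts (SD, n = 4 each). That separation came from adding Sln, so it is no result beyond that of Sln itself. All of these are ratios of FPKM averaged over all cells of the tissue, and the atrial markers given beside Sln were higher in the same libraries as Sln.

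**Figure D2:**
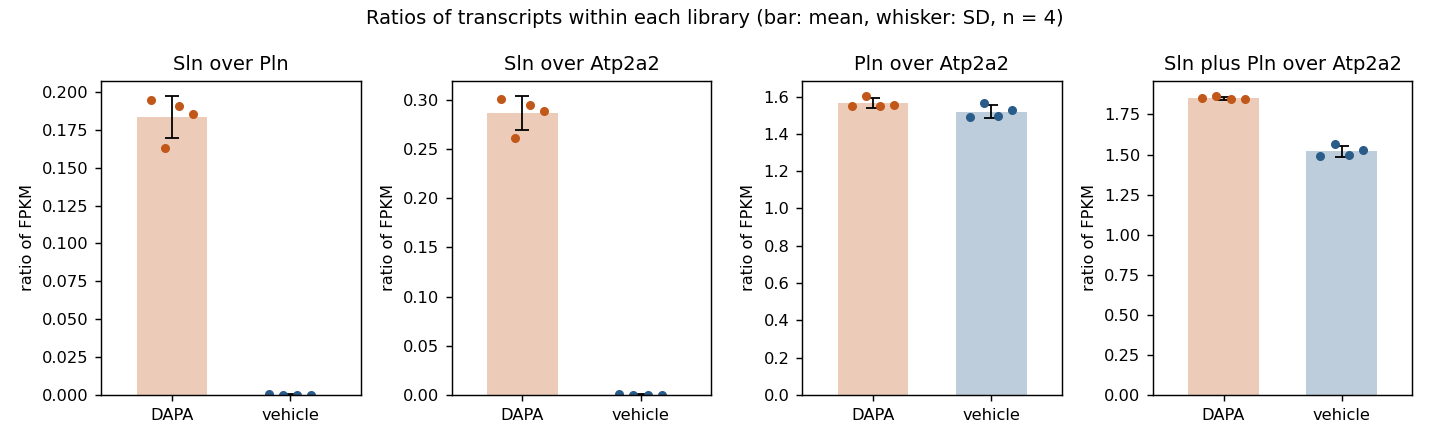
Ratios of FPKM within each library (points), with group mean (bar) and SD (whisker, n = 4), DAPA left of vehicle. Sln over Pln averages 0.183 in DAPA libraries and is near 0 in vehicle libraries, Pln over Atp2a2 overlaps between groups, and the sum of both inhibitors over Atp2a2 lies at 1.85 to 1.87 in DAPA libraries and at 1.49 to 1.57 in vehicle libraries.

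The second pump gene, Atp2a1 (NCBI Gene 11937), encodes SERCA1, the pump of fast skeletal muscle, and was low in every heart. It had 0.336, 0.835, 1.25 and 0.435 FPKM in DAPA libraries 1 to 4, against 0.0558, 0.119, 0.105 and 0.0551 FPKM in vehicle libraries 1 to 4. Each DAPA library lay above each vehicle library, and DAPA libraries 2 and 3 were the highest. The means were 0.713 ± 0.416 FPKM in DAPA hearts and 0.0837 ± 0.0332 FPKM in vehicle hearts (SD, n = 4 each), from 255 and 30 reads. Per read sequenced Atp2a1 was 8.5-fold higher with DAPA (exact binomial 95% interval 5.81 to 12.9, counting error only), and between 6.44-fold and 9.99-fold when any single library was left out. Among the DAPA libraries its coefficient of variation was 58.3%, where counting error alone gives 12.5%. Its mean did not reach 1 FPKM in either group, the minimum for the fit across all genes, so it was not among the 9 of the 10 genes that were fitted. Sln passed that minimum through its DAPA level only. Even in DAPA hearts Atp2a1 was at 6.54e-04 of the Atp2a2 level.

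Skeletal muscle myosins had few reads, more in total with DAPA, and their order over the DAPA libraries differed between isoforms. Myh1, a fast skeletal myosin, had 8, 34, 47 and 21 reads in DAPA libraries, against 1, 10, 1 and 0 reads in vehicle libraries. Myh2, another fast skeletal myosin, had 3, 45, 92 and 14 reads in DAPA libraries, against 0, 1, 1 and 0 reads in vehicle libraries. For Myh1 and Myh2 DAPA libraries 2 and 3 were the highest, as for Atp2a1. Myh3, an embryonic myosin, had 4, 0, 2 and 17 reads in DAPA libraries and 0 reads in each vehicle library, and Myh8, a perinatal myosin, had 13, 13, 19 and 27 reads in DAPA libraries, against 0, 0, 4 and 0 reads in vehicle libraries, so both peaked in DAPA library 4. Myh4, the fastest of the adult isoforms, had a single read in all. Of 24 skeletal muscle markers, all were above 0 in some DAPA library and 20 in some vehicle library, with Myh4, Myh3, Myod1 and Myog at 0 in every vehicle library. Myh4, Myod1 and Myog had 1 read each over the DAPA libraries, so this difference in detection is at the floor. In limma 3 of the 10 markers tested were higher with DAPA and 1 was lower, and the summed level, carried by genes that heart muscle also expresses (Acta1, Ckm and Eno3), was 2910 to 3164 FPKM in DAPA libraries and 3061 to 3169 FPKM in vehicle libraries. The part of these markers in the Atp2a1 difference was not tested.

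**Figure D3:**
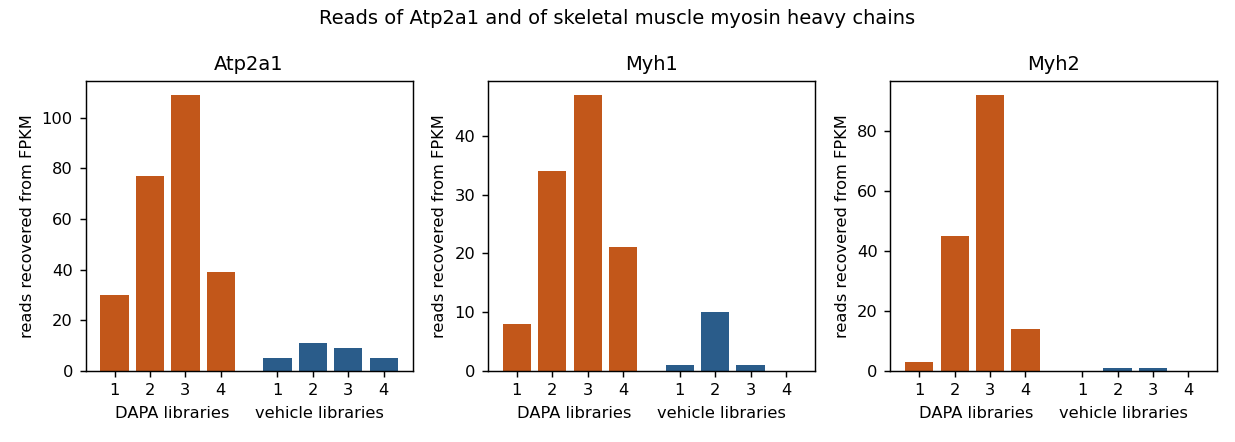
Reads of Atp2a1, Myh1 and Myh2 recovered for each library (bars, axes from 0), DAPA libraries 1 to 4 at the left and vehicle libraries 1 to 4 at the right. DAPA libraries 2 and 3 are the highest for all 3 genes, with 77 and 109 reads of Atp2a1, and vehicle libraries hold 5 to 11 reads of Atp2a1.

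The proteins that store calcium in the heart differed by under 3% at the transcript level. Casq2 (NCBI Gene 12373), the cardiac calsequestrin, had 419, 445, 429 and 435 FPKM in DAPA libraries, against 444, 396, 430 and 429 FPKM in vehicle libraries. DAPA library 2 was the highest and vehicle library 2 the lowest of the 8, and the groups overlapped, with means of 432 ± 10.8 FPKM in DAPA hearts and 425 ± 20.2 FPKM in vehicle hearts (SD, n = 4 each). Hrc (NCBI Gene 15464), a histidine-rich protein that binds calcium beside calsequestrin and touches both the pump and triadin, had 227, 252, 239 and 242 FPKM in DAPA libraries, against 250, 234, 251 and 248 FPKM in vehicle libraries. Its means were 239.9 ± 10.4 FPKM in DAPA hearts and 246 ± 7.89 FPKM in vehicle hearts, 2.37% lower with DAPA, and the groups overlapped. The ratio of Hrc to Casq2 was 0.541, 0.566, 0.556 and 0.557 in DAPA libraries, against 0.564, 0.591, 0.583 and 0.578 in vehicle libraries, and the groups overlapped.

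Casq1 (NCBI Gene 12372), the skeletal calsequestrin, was present at a low level. It had 3.02, 4.74, 2.92 and 3.79 FPKM in DAPA libraries, against 2.91, 2.37, 3.16 and 2.91 FPKM in vehicle libraries. DAPA libraries 2 and 4 lay above every vehicle library and DAPA libraries 1 and 3 lay within the vehicle range. The means were 3.62 ± 0.842 FPKM in DAPA hearts and 2.84 ± 0.335 FPKM in vehicle hearts (SD, n = 4 each), a ratio of 1.27. On the log2(FPKM + 1) scale the difference was 0.25 with a standard error of 0.11, and it lay between 0.14 and 0.33 over the leave-one-out fits. DAPA library 2 was the highest for Casq1, while for Atp2a1 it was second to library 3. Casq1 stood at 0.00835 ± 0.00174 of Casq2 in DAPA hearts and at 0.00667 ± 0.000568 of Casq2 in vehicle hearts (SD, n = 4 each), and these ratios overlapped.

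The release channel and its partners overlapped between the groups. Ryr2 (NCBI Gene 20191), the ryanodine receptor through which calcium leaves the reticulum, had 33.6, 34.3, 34.2 and 34 FPKM in DAPA libraries, against 35.8, 32.5, 35.2 and 33.9 FPKM in vehicle libraries. All 4 DAPA libraries fell inside the vehicle range, with means of 34 ± 0.292 FPKM in DAPA hearts and 34.4 ± 1.47 FPKM in vehicle hearts (SD, n = 4 each). Among the DAPA libraries the coefficient of variation of Ryr2 was 0.857%, close to the 0.816% that counting error alone gives, against 4.29% among vehicle libraries, where counting error gives 0.812%.

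Trdn (NCBI Gene 76757), encoding triadin, had 46.4, 47.2, 45 and 46.4 FPKM in DAPA libraries, against 42.9, 44.8, 43.6 and 46.1 FPKM in vehicle libraries. Vehicle library 4 reached into the DAPA range, so the groups overlapped, with means of 46.3 ± 0.926 FPKM in DAPA hearts and 44.3 ± 1.38 FPKM in vehicle hearts (SD, n = 4 each). Its difference of 4.33% was the largest among the 7 genes with a vehicle mean of at least 5 FPKM. Cacna1c (NCBI Gene 12288), the pore of the L-type channel, had 9.98, 10.5, 10.7 and 10.3 FPKM in DAPA libraries, against 11.2, 9.75, 10.9 and 10.8 FPKM in vehicle libraries. It averaged 10.3 ± 0.291 FPKM in DAPA hearts and 10.7 ± 0.633 FPKM in vehicle hearts (SD, n = 4 each), 3% lower with DAPA, and the groups overlapped. The ratio of Cacna1c to Ryr2, the trigger channel to the release channel, was 0.304 ± 0.00616 in DAPA hearts and 0.31 ± 0.00759 in vehicle hearts.

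Those 7 genes (Pln, Atp2a2, Casq2, Hrc, Trdn, Ryr2 and Cacna1c) thus differed by -3% to 4.33% between DAPA and vehicle. Their log2 changes were -0.04 to 0.06 with standard errors of 0.024 to 0.050, and over all genes tested the median size of the log2 change was 0.079. Within a group they varied by 0.768% to 5.94% (coefficient of variation), where counting error alone gives 0.256% to 1.53%. Of all 10 genes, 2 (Sln and Atp2a1) were higher in every DAPA library than in every vehicle library and 0 were lower in that sense. Over all genes tested, 22.1% did not overlap, 12.1% in the higher direction and 9.99% in the lower one. The genes were chosen with this contrast known, so the count carries no further reading. In the authors' deposited table the ratio of DAPA over vehicle is 1117 for Sln and 8.46 for Atp2a1, and lies between 0.963 for Cacna1c and 1.27 for Casq1 for the other 8.

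By group means, the order of levels was the same in both groups but for Sln. In DAPA hearts it ran Pln, Atp2a2, Casq2, Sln, Hrc, Trdn, Ryr2, Cacna1c, Casq1 and Atp2a1 from high to low, and no neighbours in that order overlapped in their ranges. In vehicle hearts it ran Pln, Atp2a2, Casq2, Hrc, Trdn, Ryr2, Cacna1c, Casq1, Sln and Atp2a1, and only the last neighbours, Sln and Atp2a1, overlapped. Sln therefore stood 1.3-fold above Hrc in DAPA hearts, while in vehicle hearts Casq1, the next gene above it, stood 10.2-fold higher than Sln. That place rests on vehicle library 1, since without it Sln averaged 0.0752 FPKM in vehicle hearts, below Atp2a1 at 0.093 FPKM, and Casq1 stood 37.4-fold higher than Sln. Hrc stood 5.19-fold above Trdn in DAPA hearts and 5.54-fold above it in vehicle hearts, the widest step between neighbours above 5 FPKM in either group.

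**Figure D4:**
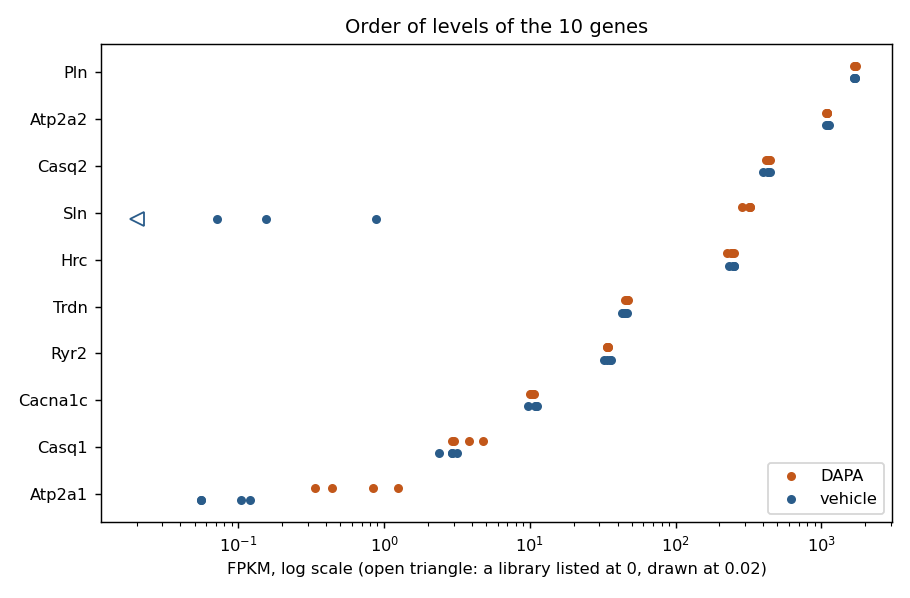
FPKM of the 10 genes on a log axis, 1 row per gene in the order of the DAPA means, with DAPA libraries drawn above vehicle libraries in each row and an open triangle for the vehicle library with no Sln read. Sln lies between Casq2 and Hrc in DAPA hearts and between the means of Casq1 and Atp2a1 in vehicle hearts, while the other rows keep their order.

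To see how far the surrounding calcium machinery differed, 122 further genes in 6 lists were tested with limma over all 11496 genes that reached 1 FPKM on average in a group. Of the 98 that were tested, 12 were higher and 8 were lower with DAPA at an adjusted p below 0.05. That is 20.4% of them, close to the 18.4% called among all genes tested (9.62% higher and 8.75% lower), so the share is near the background. Their median log2 change was 0.03, against 0.01 over all genes tested. These lists were drawn up with earlier results of the same libraries known. Clic2 was not analysed here.

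Among relatives of the pump and its regulators, 1 of 10 tested genes was higher and 2 were lower (30% called, against 18.4% of all genes tested). Calr, encoding calreticulin, which buffers calcium in the endoplasmic reticulum, had 196, 192, 191 and 190 FPKM in DAPA libraries, against 158, 161, 165 and 155 FPKM in vehicle libraries. It rose 1.2-fold with no overlap (log2 change 0.27 ± 0.028 SE, adjusted p = 2.2e-05). Tmem38a, encoding the potassium channel TRIC-A that balances charge while the reticulum releases calcium, fell to 124 ± 3.36 FPKM in DAPA hearts, against 139 ± 2.31 FPKM in vehicle hearts (SD, n = 4 each, adjusted p = 0.0011). Strit1 encodes DWORF, a small peptide known to displace phospholamban and sarcolipin from the pump and so to raise its activity. It had 12.9, 11.1, 10.3 and 8.74 FPKM in DAPA libraries, against 13.5, 15.3, 12.4 and 14.1 FPKM in vehicle libraries, where DAPA library 1 reached into the vehicle range. It was lower at an adjusted p of 0.020, but the adjusted p was 0.051 without DAPA library 3, 0.057 without vehicle library 2 and 0.16 with voom on recovered reads.

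The remaining peptides and the third pump were not called. Atp2a3, the pump of non-muscle cells, averaged 8.97 ± 0.802 FPKM in DAPA hearts and 9.06 ± 0.48 FPKM in vehicle hearts (SD, n = 4 each, adjusted p = 0.90). The peptide gene 1810037I17Rik, listed among the pump regulators, averaged 77.4 ± 2.05 FPKM in DAPA hearts and 82 ± 4.78 FPKM in vehicle hearts (adjusted p = 0.20). Mrln, encoding the skeletal muscle inhibitor myoregulin, had 17 reads over the DAPA libraries and 29 over the vehicle libraries, and Smim6, encoding another small pump peptide, had 28 reads over the DAPA libraries and 12 over the vehicle libraries. Both were under the minimum for the test, and their groups overlapped.

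The release unit and the junction between surface membrane and reticulum gave 0 calls in 16 tested genes with limma-trend, where 18.4% of all genes tested were called. At an unadjusted p below 0.05, 2 were higher and 2 lower, and voom on recovered reads called 2 higher (Homer1 and Itpr1) and 1 lower (Speg), named here after their values were seen. Homer1, a scaffold protein, averaged 3.97 ± 0.12 FPKM in DAPA hearts and 3.45 ± 0.384 FPKM in vehicle hearts (limma-trend adjusted p = 0.12). Itpr1, an IP3 receptor, averaged 6.36 ± 0.179 FPKM in DAPA hearts and 5.67 ± 0.468 FPKM in vehicle hearts (adjusted p = 0.11). Asph, whose locus also encodes the triadin relative junctin, averaged 9.64 ± 0.268 FPKM in DAPA hearts and 9.27 ± 0.261 FPKM in vehicle hearts (SD, n = 4 each, adjusted p = 0.47).

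The other ryanodine receptors were hardly present. Ryr1, the skeletal muscle channel, had 0.0236 ± 0.0115 FPKM in DAPA hearts and 0.028 ± 0.00482 FPKM in vehicle hearts, and its groups overlapped. Ryr3 had 0.164, 0.217, 0.204 and 0.223 FPKM in DAPA libraries, against 0.0889, 0.1, 0.0851 and 0.0925 FPKM in vehicle libraries. Its groups did not overlap, at a level below the minimum of the main test. Without that minimum, limma gave Ryr3 an adjusted p of 0.003.

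Of 12 tested subunits and regulators of voltage-gated calcium channels, 4 were higher and 0 lower in limma (1 lower at an unadjusted p below 0.05, and 0 lower with voom). Over all genes tested, 9.62% were higher and 8.75% lower. Cacna2d2 and Cacna1h passed the 1 FPKM minimum through their DAPA level only, so they entered the test only because they were high there. With a minimum of 5 FPKM, which leaves out Cacna2d2, Cacna1h and Cacna1g, 1 was higher. Cacna2d2, an accessory subunit that helps channels reach the surface, had 2.91, 2.61, 2.74 and 3.1 FPKM in DAPA libraries, against 0.257, 0.151, 0.19 and 0.314 FPKM in vehicle libraries. It rose 12.4-fold with no overlap (log2 change 1.65 ± 0.073 SE, adjusted p = 5.6e-09). Cacna1h, the pore of a T-type channel that opens at low voltage, rose to 2.28 ± 0.215 FPKM in DAPA hearts, against 0.839 ± 0.135 FPKM in vehicle hearts, which is 2.71-fold (SD, n = 4 each, adjusted p = 6.2e-06). Cacna1g, the pore of the other cardiac T-type channel, rose 1.48-fold, with 2.57 ± 0.163 FPKM in DAPA hearts and 1.74 ± 0.208 FPKM in vehicle hearts (adjusted p = 0.0020). Rrad, a small GTP-binding protein that restrains the L-type channel, rose 1.27-fold, with 154 ± 3.7 FPKM in DAPA hearts and 121 ± 3.58 FPKM in vehicle hearts (adjusted p = 4.8e-06). The pore genes Cacna1d (0.22 ± 0.041 FPKM in DAPA hearts, 0.141 ± 0.0147 FPKM in vehicle hearts) and Cacna1s (0.864 ± 0.112 FPKM in DAPA hearts, 0.759 ± 0.206 FPKM in vehicle hearts) were too low to enter the test. The atrial markers given beside Sln were higher in the same libraries as these channel genes, and their part in the result was not tested.

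For calcium extrusion and the sodium pump, which sets the gradient that drives sodium-calcium exchange, 1 of 10 tested genes was higher and 2 were lower. That is 30% called, against 18.4% of all genes tested. Atp1b3, a sodium pump subunit, rose 1.16-fold, with 40.8 ± 0.765 FPKM in DAPA hearts and 35.1 ± 0.738 FPKM in vehicle hearts (adjusted p = 4.9e-04). Fxyd1, encoding phospholemman, which restrains the sodium pump much as phospholamban restrains the calcium pump, fell to 235 ± 5.7 FPKM in DAPA hearts, against 263 ± 11.4 FPKM in vehicle hearts (adjusted p = 0.0043). Atp1b1 had 119, 122, 123 and 122 FPKM in DAPA libraries, against 136, 127, 133 and 129 FPKM in vehicle libraries (adjusted p = 0.026), and its adjusted p was 0.18 after quantile normalization and over 0.05 without any one of 5 libraries (DAPA 1, 2 or 4, vehicle 1 or 3).

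Among 30 tested kinases, phosphatases and receptors that act on the pump and the channels, 5 were higher and 2 lower. The share called was 23.3%, near the 18.4% over all genes tested. Rcan1, an inhibitor of the phosphatase calcineurin and itself induced by it, rose to 75 ± 1.49 FPKM in DAPA hearts, against 56.8 ± 1.95 FPKM in vehicle hearts (1.32-fold, adjusted p = 2.4e-06). Prkar1a, a regulatory subunit of protein kinase A, the kinase that phosphorylates phospholamban, rose 1.17-fold, with 175 ± 1.63 FPKM in DAPA hearts and 149 ± 0.734 FPKM in vehicle hearts (adjusted p = 2.4e-05). Hspb6, encoding the small heat shock protein Hsp20, which is known to bind the phosphatase acting on phospholamban, fell to 452 ± 9.21 FPKM in DAPA hearts, against 529.9 ± 15.3 FPKM in vehicle hearts (adjusted p = 9.1e-05).

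Enzymes and receptors of cyclic AMP were among the same list. Pde4b, which breaks down cyclic AMP, had 1.95, 1.7, 1.99 and 1.94 FPKM in DAPA libraries, against 1.15, 1.13, 1.15 and 1.18 FPKM in vehicle libraries (1.65-fold, adjusted p = 3.6e-04). The other 2 genes called higher, Pde3a (1.37-fold, adjusted p = 6.7e-04) and the adenylyl cyclase Adcy5 (1.15-fold, adjusted p = 0.018), are named after their values were seen. Adrb3, the beta-3 adrenergic receptor, fell to 0.189 ± 0.113 FPKM in DAPA hearts, against 1.2 ± 0.315 FPKM in vehicle hearts (adjusted p = 7.7e-05). It passed the 1 FPKM minimum through its vehicle level only. Adrb3 is also in the adipocyte marker list, where 9 of 10 tested markers were lower, Adrb3 itself among these 9, and none higher. Over all genes tested, 8.75% were lower. The sums of the list were 1208 to 1279 FPKM in DAPA libraries and 1699 to 1933 FPKM in vehicle libraries. These sums were carried largely by Fabp4 (1102 ± 13.3 FPKM in DAPA hearts and 1361 ± 54.4 FPKM in vehicle hearts, SD, n = 4 each). Plin1, like Adrb3, passed the 1 FPKM minimum through its vehicle level only. The part of these markers in the Adrb3 difference was not tested.

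Of 20 tested genes of store-operated and mitochondrial calcium entry, 1 was higher and 2 were lower, and each of the 3 lost its call when a library was left out. The share called was 15%, near the 18.4% over all genes tested. Orai3, a store-operated channel, averaged 14.8 ± 0.406 FPKM in DAPA hearts and 13.2 ± 0.575 FPKM in vehicle hearts (adjusted p = 0.026, up to 0.074 with a library left out). Letm1, a protein of the inner mitochondrial membrane, averaged 22.3 ± 0.74 FPKM in DAPA hearts and 24.8 ± 0.89 FPKM in vehicle hearts (adjusted p = 0.021, up to 0.067). Smdt1, which encodes the EMRE subunit of the mitochondrial calcium uniporter, averaged 178.5 ± 4.39 FPKM in DAPA hearts and 191 ± 6.32 FPKM in vehicle hearts (adjusted p = 0.042, up to 0.11).

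**Figure D5:**
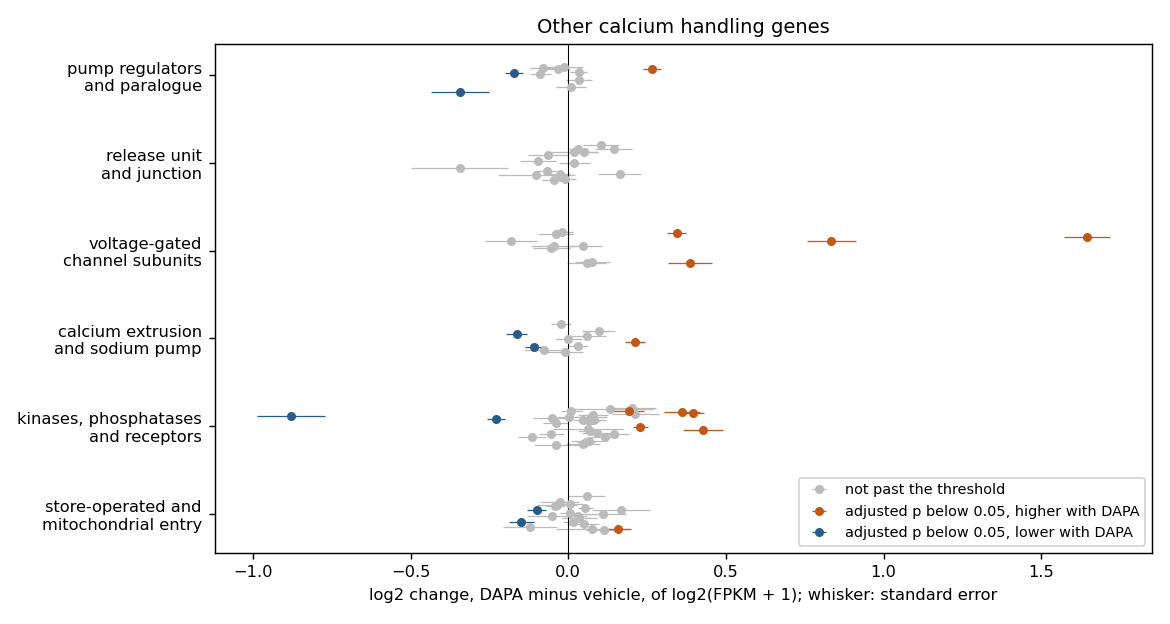
Log2 change (DAPA minus vehicle, log2(FPKM + 1) scale) of the 98 tested calcium handling genes outside the set of 10, in 6 lists, with whiskers of 1 standard error and colours for an adjusted p below 0.05. Most genes lie near 0, Cacna2d2 stands furthest to the right at 1.65 and Adrb3 furthest to the left at -0.88.

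Other cell types sampled in the bulk tissue also differed between the groups, and their part in the values above was not tested. At an adjusted p below 0.05 in limma, 7 of 8 tested endothelial markers were higher and 0 lower (sums of 623 to 638 FPKM in DAPA libraries and 525 to 544 FPKM in vehicle libraries), as were 4 of 6 nerve and Schwann cell markers with 0 lower. Smooth muscle markers gave 3 higher and 1 lower of 8, macrophage markers 3 higher and 1 lower of 8, and fibroblast markers 2 higher and 4 lower of 10. Of 9 markers of heart muscle of either chamber, 1 was higher and 1 lower.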

How the data were processed

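Polyadenylated RNA of mouse hearts was sequenced as 8 stranded libraries, in pairs of 150 bases and trimmed with Trimmomatic, per the labels' protocols. Alignment and quantification tools listed in the submitters' processing notes are SAMtools, HISAT2, HTSeq, StringTie, Cufflinks and DESeq, without versions, with the build GRCh38, a human assembly, although the genes are those of mouse. The assembly behind the values is therefore unclear, and the only coordinates printed are RefSeq's own for the promoters. Strand-specific counting is not mentioned in those notes. The deposited values are FPKM per library, computed by the authors with no pooling, together with the authors' ratio (fold change) and q-value; the q-value was not used.

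Reads were recovered as whole numbers for 17356 of 17356 genes above 0 (tolerance 0.0001 reads), and 99.91% to 99.92% of each library's total lay in the genes listed. Intervals and floors (3 reads) cover counting error only. The main test was limma with a mean-variance trend (version 3.58.1, in R 4.3.3), run on log2(FPKM + 1), which understates changes of low genes, for 11496 genes with a mean of at least 1 FPKM in a group. Calls needed a Benjamini-Hochberg adjusted p below 0.05, and the fit was tested on simulated data. With no statement on separate animals, p-values measure the spread between these libraries. The 10 genes, the 6 further lists and the 10 marker lists were chosen with earlier results of these data known. Named outside the 10 are up to 5 called genes with the smallest p per list, called genes past 1.5-fold, fixed paralogues and peptides, and the 8 genes most like Sln. The 16 alternatives covered pseudocount, minimum level, scaling, voom with TMM library factors on the recovered reads, a replicate block and each library left out.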

Additional observations from a re-analysis of the deposited data

Results flagged for a closer look

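None of the 10 genes had a library flagged as far from the rest of its group by Dixon's gap ratio. That rule left vehicle library 1 of Sln unflagged, although it stood at 0.886 FPKM, against 0 to 0.154 FPKM in the others, and held 12 of the 15 vehicle reads. Among 90 groups of 4 libraries examined (the 10 genes, the further named genes and those most like Sln), 5 were flagged, and chance alone gives about 1 in 20. In the DAPA group, Fxyd1 stood at 226 FPKM in library 1 (236 to 238 in the others), Pde4b at 1.7 FPKM in library 2 (1.94 to 1.99), and Sbk3 at 7.73 FPKM in library 2 (8.56 to 8.72). In the vehicle group, Asph stood at 8.88 FPKM in library 2 (9.35 to 9.43), and Bmp10 at 0.029 FPKM, a single read, in library 1 (0 in the others).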

How the results depend on the processing

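Over 16 alternatives no named gene changed direction where it was called, and 13 of the 18 called genes named from the calcium handling lists kept their call under every one that fitted them. The exceptions were Strit1, Atp1b1, Letm1, Orai3 and Smdt1, and the cause was not tested. Calls over all genes tested numbered 1106 higher and 1006 lower, with 857 to 985 and 810 to 921 when a library was left out, and 857 to 1257 and 810 to 1314 over all alternatives. Among the further calcium handling genes, 12 higher and 8 lower became 11 to 13 higher and 5 to 7 lower with a library left out, the 5 without DAPA replicate 4 and likewise without vehicle replicate 3. The replicate block gave 906 higher and 858 lower over all genes tested and 12 higher and 7 lower among the calcium handling genes, where Atp1b1 lost its call (adjusted p = 0.060). Same-numbered libraries did not deviate together (correlations of -0.0551 to 0.0138), so the numbers do not pair them. The log2 change of Sln, 7.98 with a pseudocount of 1, was 10.25 with 0.1, 11.54 with 0.01 and 10.90 with voom, while that of Atp2a2 was -0.03 and, after quantile normalization, 0.03. Casq2 (-0.01 to 0.05) and Ryr2 (-0.04 to 0.01) also crossed 0 when a library was left out. Depth limits Sln and Atp2a1 in vehicle hearts, where 15 and 30 reads carry the level.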
